A study of Mus musculus with 6 samples.

Results

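Extracellular matrix genes were followed in RNA sequencing of isolated mouse pancreatic islets. The set holds every gene whose symbol follows the collagen chain pattern, from Col1a1 to Col28a1, and 18 further genes of matrix proteins or matrix protease inhibitors. These are Dcn, Lum, Fn1, Mgp, Mfap2, Mfap4, Mfap5, Bgn, Fbn1, Sparc, Postn, Fmod, Ogn, Lox, Eln, Timp1, Timp2 and Timp3. Together they make 62 of the 34745 genes in the deposited table, 44 of them collagen chains. The genes were chosen by name, not by a threshold on measured values.

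The islets came from C57BL/6 mice aged 8 weeks, and the 6 libraries form 3 groups of 2. The KO+DNMT3A group is βRapKO islets in which the DNA methyltransferase Dnmt3a was supplied by a lentivirus. The KO group is βRapKO islets, from mice that lack Rptor in beta cells. Rptor encodes Raptor, the subunit that defines the growth-controlling kinase complex mTORC1. The WT group is wild-type islets. GFP appears in the column names of the KO and WT libraries, with no explanation in the labels. The promoter that drove the deletion is not given in the sources used here, nor is it stated that replicates are separate animals. The p-values then cover the spread between libraries alone, and that spread may be technical.

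Collagens are built from chains wound around each other, each a long run of short repeats rich in glycine. Fibrillar collagens such as types I, III and V form the cables of connective tissue and are made mainly by fibroblasts and stellate cells. Type IV collagen forms the sheet-like network of basement membranes, which in the islet lies around capillaries and is made largely by their endothelial cells. Small proteoglycans and microfibril proteins decorate and space the fibres, and beta cells meet this matrix mostly at the capillary face.

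The values are the authors' FPKM, fragments scaled by gene length and library size, so levels can be compared between genes. Depth was inferred from genes with a single transcript and ranged from 244636 fragments in WT replicate 1 to 1920991 in KO+DNMT3A replicate 1. One fragment on a transcript of 2 kb is then worth 2.04 FPKM in the shallowest library and 0.26 FPKM in the deepest. A pair of libraries, KO replicate 2 and WT replicate 1, were poor in insulin RNA: the 9 beta cell markers summed to 1640 and 1560 FPKM there and to 125000 to 218000 FPKM in the other 4 libraries. Both carry the number 3 in their column names, as does KO+DNMT3A replicate 2, where these markers summed to 152000 FPKM. Neither targeted gene told all groups apart, although for Dnmt3a both KO+DNMT3A libraries lay above both KO libraries. Rptor was 0.714 and 1.93 FPKM in KO+DNMT3A, 0.378 and 1.51 FPKM in the KO pair, and 0.800 and 1.06 FPKM in WT. Dnmt3a was 3.62 and 3.80 FPKM in KO+DNMT3A, 3.19 and 2.5 FPKM in the KO pair, and 2.94 and 4.43 FPKM in WT, so the groups are called by their labels.

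Matrix genes were a small part of the islet RNA and were unevenly spread over the libraries. The 62 genes summed to 774 and 425 FPKM in the KO+DNMT3A libraries, 725 and 992 FPKM in the KO libraries, and 2210 and 611 FPKM in the WT libraries. WT replicate 1 stood well above all others, and KO+DNMT3A replicate 2 was the lowest. As a share of all FPKM this was 0.151% and 0.0776% in KO+DNMT3A, 0.136% and 0.155% in KO, and 0.385% and 0.111% in WT. The 4 most abundant matrix genes held 52.5% to 58.4% of the matrix total in each library. Col1a1 and Sparc were among these 4 in every library. Mgp was among them in KO+DNMT3A replicate 2, in both KO libraries and in WT replicate 2, and Dcn in KO+DNMT3A replicate 1 and WT replicate 1. In bulk islets, fewer cells of a type and less RNA per cell cannot be told apart.

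Of the 62 genes, 41 reached 1 FPKM in at least 2 libraries and were tested. Among the 21 that did not, Col2a1, Col6a4, Col6a5, Col22a1 and Col23a1 were listed at 0 in all libraries. Col2a1 encodes the main collagen of cartilage. The highest value among the 21 was 2.34 FPKM for Col14a1, a fibril-associated collagen, in KO replicate 2. The basement membrane chains Col4a3 and Col4a4, known from the kidney glomerulus, stayed at or under 0.0956 and 0.235 FPKM. The shallow WT replicate 1 had 23 matrix genes at 0, against 9 to 17 in the other libraries.

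Libraries rather than groups carried the main contrast among the tested genes. WT replicate 1 was the highest library for 25 of the 41 genes, where it was the highest for 17.1% of all genes tested. KO+DNMT3A replicate 2 was the lowest library for 25 of the 41, against 9.77% of all genes. KO+DNMT3A replicate 1 and WT replicate 2 were the highest for none of the 41, although they were the highest for 24.2% and 13.6% of all genes. The pattern followed the kind of matrix gene. WT replicate 1 was the highest for all 5 leucine-rich proteoglycan genes, 6 of 8 fibrillar collagens and 5 of 6 elastic fibre genes, but for 1 of 7 basement membrane and network collagens. Both KO libraries together held the maximum of the other 6 network collagens. This short name stands for the whole class of basement membrane, network and multiplexin collagens, the last being Col15a1 and Col18a1.

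**Figure D1:**
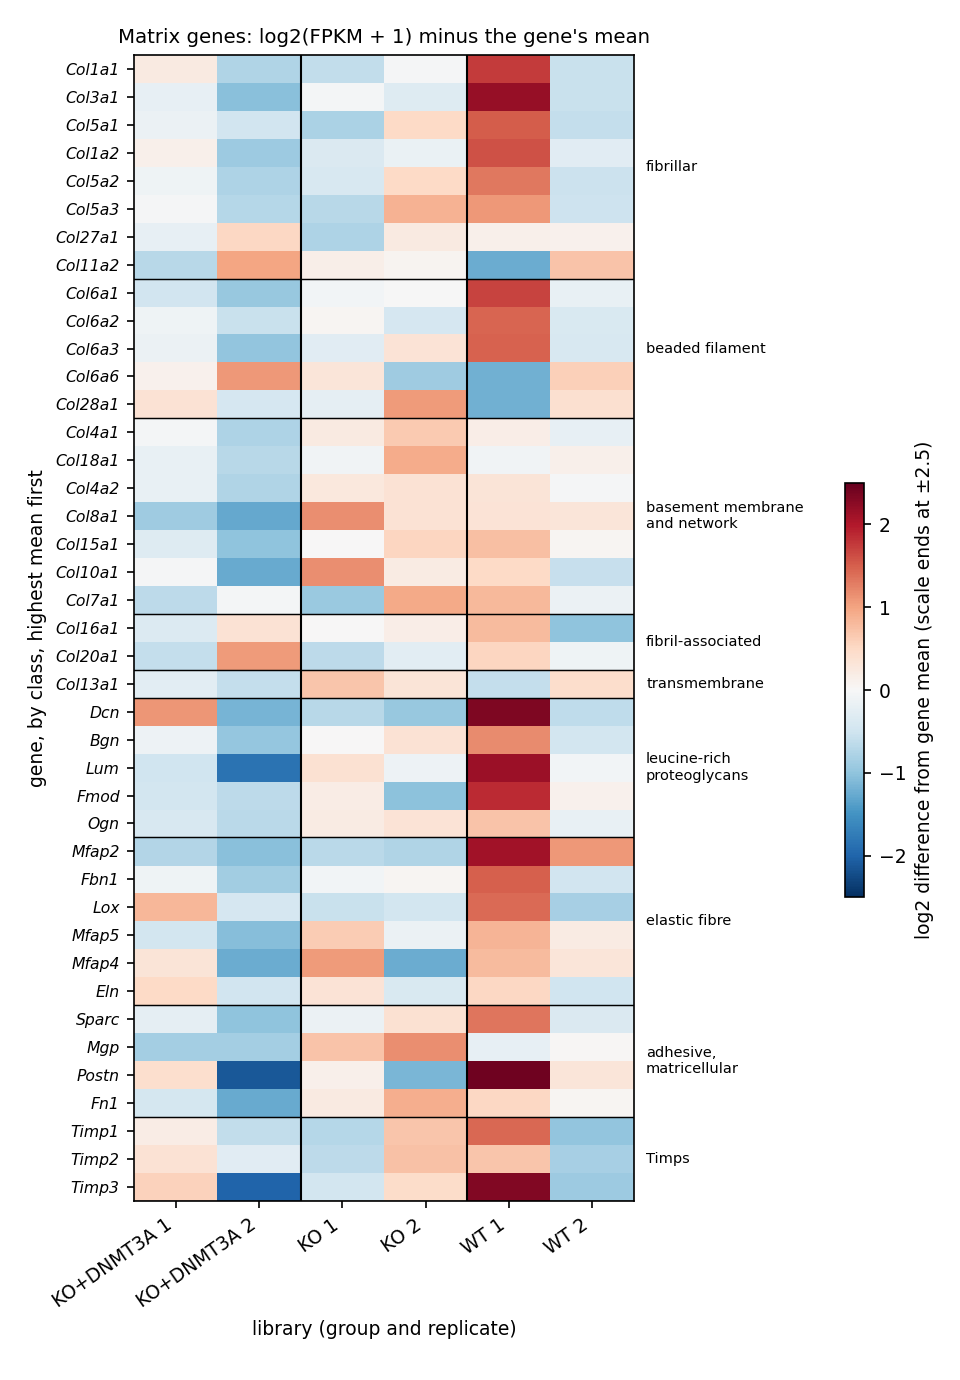
Heat map of the 41 tested matrix genes (rows, by class) in the 6 libraries (columns, group and replicate), coloured by log2(FPKM + 1) minus the gene's mean over the libraries. The WT 1 column is red through most fibrillar, proteoglycan and elastic fibre rows, and the KO+DNMT3A 2 column is blue through most rows.

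Among fibrillar collagens, Col1a1, the major chain of type I collagen (chromosome 11, 94936224 to 94953042, GRCm38/mm10), was the most abundant. It was 163 and 82.1 FPKM in KO+DNMT3A, 90.6 and 136 FPKM in the KO pair, and 474 and 94.9 FPKM in WT. All libraries but WT replicate 1 lay within 82.1 to 163 FPKM, and the groups overlapped in every comparison. Col3a1, the single chain of type III collagen, was 42.4 and 23.3 FPKM in KO+DNMT3A, 47.8 and 39.0 FPKM in the KO pair, and 226 and 33.4 FPKM in WT. WT replicate 1 was again the only library far from the rest. Its ratio to WT replicate 2 was 6.77 for Col3a1, 4.99 for Col1a1, 4.47 for Col5a1, 3.82 for Col1a2, 3.76 for Col5a2 and 3.55 for Col5a3. Col27a1, a fibrillar collagen of developing cartilage, did not share this, with a ratio of 1.01. Nor did the low Col11a2, at 0 FPKM in WT replicate 1 and 2.89 FPKM in WT replicate 2.

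In the pairs read here, chains of 1 collagen type kept ratios that varied less than their levels. The low type VI chain Col6a6 was not among these pairs. Col1a1 over Col1a2, whose products join in type I collagen, was 6.55 and 7.05 in KO+DNMT3A, 5.15 and 6.78 in KO, and 6.69 and 5.11 in WT. The type IV pair, Col4a1 over Col4a2, lay between 2.31 and 3.20 in the 6 libraries. Col6a1 over Col6a3, both of the beaded filaments of type VI collagen, lay between 2.26 and 3.57, and Col6a1 over Col6a2 between 1.95 and 3.47. Ratios across types were not all wider: Col4a1 over Col18a1 lay between 1.59 and 2.55, and Col1a1 over Col3a1 between 1.90 and 3.84. Fibrillar chains over Col4a1 spread more, chiefly through WT replicate 1. Col3a1 over Col4a1 was 8.67 in that library and at most 1.90 elsewhere, and Col1a1 over Col4a1 was 7.28 and 6.22 in KO+DNMT3A, 3.33 and 3.67 in KO, and 18.2 and 4.76 in WT. These ratios carry no test, and the pairs were chosen with the values known. Some of these genes are neighbours. Col4a1 and Col4a2 lie head to head on chromosome 8 with annotated starts that overlap by 22 bases, and no protein-coding gene lies between Dcn and Lum on chromosome 10, whose ratio ranged from 1.28 to 8.93.

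**Figure D2:**
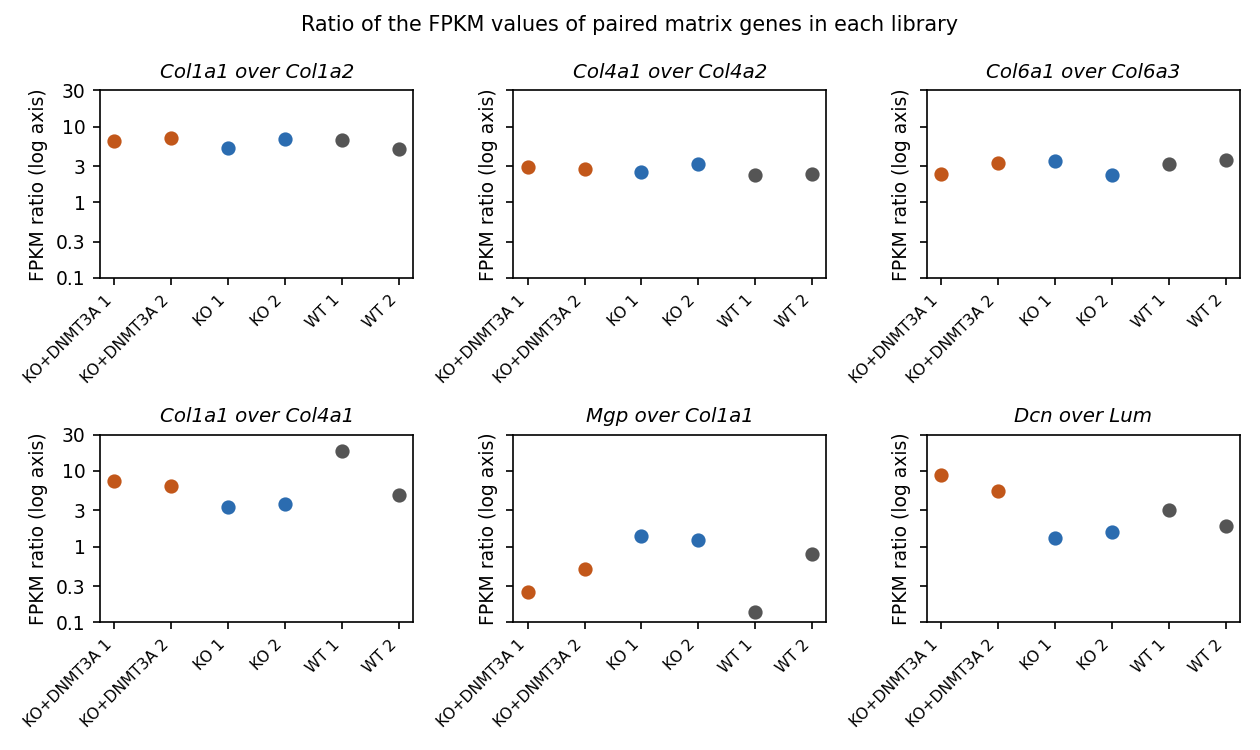
Ratio of the FPKM values of 2 matrix genes in each library, on a log axis, with KO+DNMT3A in orange, KO in blue and WT in grey. Chains of 1 collagen type (first 3 panels) stay between 2.26 and 7.05, while Col1a1 over Col4a1, Mgp over Col1a1 and Dcn over Lum spread more widely.

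The beaded filament collagens Col6a1, Col6a2 and Col6a3 repeated the fibrillar pattern. Col6a1 was 18.9 and 13.2 FPKM in KO+DNMT3A, 25.2 and 26.3 FPKM in the KO pair, and 87.5 and 23.4 FPKM in WT. Here both KO+DNMT3A libraries lay below all other libraries. Col6a6, a later-described chain of the same type, ran the other way at 1.47 and 3.93 FPKM in KO+DNMT3A, 1.85 and 0.250 FPKM in the KO pair, and 0 and 2.51 FPKM in WT. It was thus listed at 0 in the library that held the most Col6a1.

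Basement membrane and network collagens, of which Col4a1, Col4a2, Col7a1, Col8a1, Col10a1, Col15a1 and Col18a1 were tested, were with 1 exception not highest in WT replicate 1. Col4a1 was 22.4 and 13.2 FPKM in KO+DNMT3A, 27.3 and 37.1 FPKM in the KO pair, and 26.1 and 19.95 FPKM in WT. Col18a1, whose product also gives rise to the fragment endostatin, was 9.89 and 6.62 FPKM in KO+DNMT3A, 10.7 and 22.4 FPKM in the KO pair, and 10.6 and 12.5 FPKM in WT. Both KO+DNMT3A libraries lay below both KO libraries for each gene. Col8a1 (chromosome 16, 57624258 to 57754737), a short-chain collagen of vessel walls, was 2.14 and 1.40 FPKM in KO+DNMT3A, 12.1 and 6.52 FPKM in the KO pair, and 6.4 and 6.23 FPKM in WT. Its KO+DNMT3A values were below every other library. Col15a1, a collagen of the zone next to basement membranes, gave 3.84 and 2.01 FPKM in KO+DNMT3A, 5.10 and 7.81 FPKM in the KO pair, and 9.17 and 5.27 FPKM in WT, again with KO+DNMT3A lowest.

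Small leucine-rich proteoglycans bind collagen fibrils and set their width. Decorin, Dcn, was 83.0 and 16.3 FPKM in KO+DNMT3A, 22.9 and 19.1 FPKM in the KO pair, and 194 and 24.1 FPKM in WT. Its neighbour lumican, Lum, was 9.29 and 3.02 FPKM in KO+DNMT3A, 17.9 and 12.3 FPKM in the KO pair, and 63.0 and 12.9 FPKM in WT. Lum was therefore lowest in both KO+DNMT3A libraries, whereas Dcn was second highest in KO+DNMT3A replicate 1. Dcn over Lum was 8.93 and 5.40 in KO+DNMT3A, 1.28 and 1.54 in KO, and 3.08 and 1.88 in WT, so the KO+DNMT3A ratios lay above all others. Bgn, Fmod and Ogn were each highest in WT replicate 1.

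Matrix Gla protein, Mgp (chromosome 6, 136872435 to 136875823), an inhibitor of calcification, did not follow the fibrillar collagens. It was 40.7 and 41.0 FPKM in KO+DNMT3A, 123 and 166 FPKM in the KO pair, and 64.4 and 75.6 FPKM in WT. The 3 groups did not overlap, with KO highest and KO+DNMT3A lowest, and WT replicate 1 lay below WT replicate 2. If the longest transcript is assumed, the values rest on 55.8 and 32.7 fragments in KO+DNMT3A, 126 and 92.9 in KO, and 11.3 and 52.6 in WT. Mgp over Col1a1 was 0.250 and 0.499 in KO+DNMT3A, 1.36 and 1.22 in KO, and 0.136 and 0.796 in WT. Fibronectin, Fn1 (chromosome 1, 71585520 to 71653200), an adhesive protein to which cells attach through integrins, was 6.22 and 3.07 FPKM in KO+DNMT3A, 10.4 and 17.4 FPKM in the KO pair, and 13.1 and 9.2 FPKM in WT. Its KO+DNMT3A values lay below all others. Sparc, a collagen-binding matricellular protein gene, was 134 and 76.7 FPKM in KO+DNMT3A, 140 and 204 FPKM in the KO pair, and 397 and 121 FPKM in WT. Periostin, Postn, was 13.8 and 1.55 FPKM in KO+DNMT3A, 11.2 and 4.03 FPKM in the KO pair, and 59.1 and 12.7 FPKM in WT.

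Microfibril and elastic fibre genes were mostly low. Mfap2 (chromosome 4, 141010418 to 141015984), which encodes a microfibril-associated glycoprotein, was 1.57 and 1.08 FPKM in KO+DNMT3A, 1.69 and 1.55 FPKM in the KO pair, and 17.3 and 8.06 FPKM in WT. Both WT libraries lay above the other 4. These values rest on few fragments: with the longest transcript assumed, 3.24 and 1.29 in KO+DNMT3A, 2.59 and 1.29 in KO, and 4.53 and 8.41 in WT. The microfibril gene Fbn1 and the crosslinking enzyme gene Lox were highest in WT replicate 1, at 10.3 and 7.67 FPKM. Timp3, a metalloproteinase inhibitor held in the matrix, was 10.4 and 0.892 FPKM in KO+DNMT3A, 4.58 and 9.5 FPKM in the KO pair, and 37.1 and 3.07 FPKM in WT. Its ratio between the WT replicates, 12.1, was the largest among tested matrix genes with at least 1 FPKM in both. Timp1, a secreted inhibitor, was 41.8 and 23.3 FPKM in KO+DNMT3A, 21.8 and 59.3 FPKM in the KO pair, and 100.4 and 17.8 FPKM in WT.

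**Figure D3:**
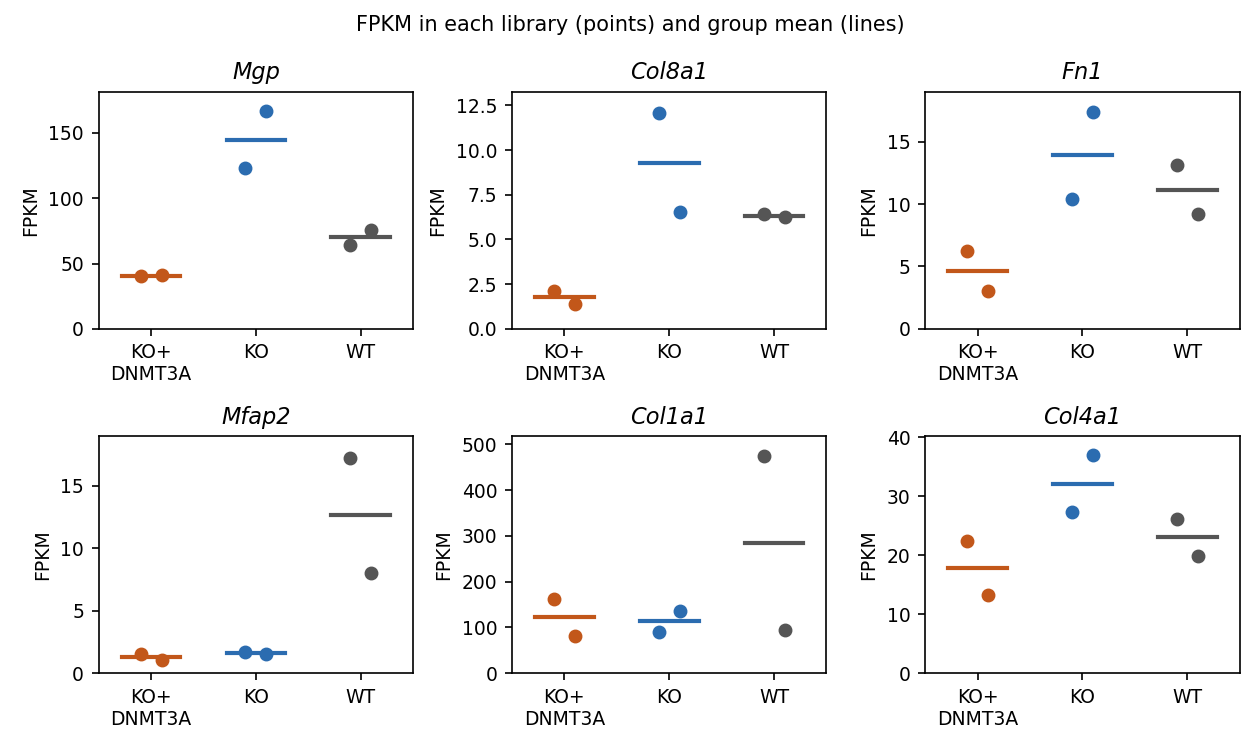
FPKM of 6 matrix genes in each library (points) with the group mean (line) on axes that start at 0. Mgp, Col8a1 and Fn1 are lowest in both KO+DNMT3A libraries, Mfap2 is high only in the WT libraries, and for Col1a1 a single WT library at 474 FPKM sets the WT mean.

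KO was compared with WT to ask how islets without Raptor in their beta cells differ from normal ones. Fibroblast-type matrix genes had lower means in KO and network collagens higher ones. Of the tested genes, 7 of 8 fibrillar collagens, 4 of 5 proteoglycans and 6 of 6 elastic fibre genes had a lower mean log2 level, with median log2 fold changes of -0.49, -0.91 and -0.58. Higher means were found for 5 of 7 network collagens, with a median of 0.40. Mgp had a mean of 145 ± 30.6 FPKM over the KO pair, against 69.99 ± 7.88 FPKM over the WT pair (SD, n = 2 each). Mfap2 had a mean of 1.62 ± 0.104 FPKM over the KO pair, against 12.7 ± 6.51 FPKM over the WT pair.

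None of the matrix genes passed the limma test, and neither did any of the 13233 genes (0.0%, smallest adjusted p = 1). Without adjustment, 240 genes were under 0.05. The 146 higher in KO were 1.1% of all genes and held 0 matrix genes. The 94 lower in KO were 0.71% of all genes, and 1 of the 41 matrix genes was among them, Mfap2, with a log2 fold change of -2.30 (SE 0.56, limma unadjusted p = 0.00361, adjusted p = 1). The next smallest p among lower matrix genes were those of Fmod, at -1.41 (SE 0.73, limma unadjusted p = 0.0927), and Postn, at -1.88 (SE 1.03, limma unadjusted p = 0.108). Among those with a higher mean, Mgp came first at 1.03 (SE 0.55, limma unadjusted p = 0.102), followed by Col28a1 and Col10a1 at 0.82 (SE 0.75) and 0.73 (SE 0.68). For the marker genes Col1a1, Col3a1, Dcn and Lum the fold changes were -0.93 (SE 0.85), -1.0 (SE 0.90), -1.68 (SE 1.09) and -0.91 (SE 0.84), each with a limma adjusted p of 1. Libraries of the 2 groups did not overlap for 4 matrix genes lower in KO, which were Mfap2, Postn, Dcn and Col20a1, where 10.5% of all genes did the same. They did not overlap for 3 matrix genes higher in KO, Mgp, Col8a1 and Col4a1, against 9.36% of all genes. Both shares are close to the background of all genes.

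The direction of the fibroblast-type genes rested on WT replicate 1. Over the 41 tested matrix genes 27 means were lower in KO, against 47.3% of all genes, and 14 higher, against 52.4%. Their median was -0.33, beside 0.03 over all genes, and was 0.33 without that library, -1.0 without WT replicate 2, 0.00 without KO replicate 1 and -0.59 without KO replicate 2. Without WT replicate 1 the fold changes were 0.22 for Col1a1, 0.36 for Col3a1, 0.20 for Lum and -0.20 for Dcn. The fibrillar class median turned to 0.29 without it and to 0.07 without KO replicate 1, whereas that of the network collagens kept its sign with any library left out, at 0.13 to 0.40. Mfap2 and Mgp kept their sign whichever library was left out, at -2.8 to -1.79 and 0.81 to 1.24. The 8 duct markers summed to 2630 FPKM in WT replicate 1, 1230 FPKM in KO+DNMT3A replicate 1 and 306 to 438 FPKM in the other libraries. Most of the WT replicate 1 sum came from Spp1 and Mmp7, at 1510 and 639 FPKM, which with Sox9 were highest there. Krt7, Krt8, Krt18 and Krt19 were instead highest in KO+DNMT3A replicate 1, and Cftr was at 0 in all libraries. The part of duct cells in these differences was not tested.

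βRapKO islets with and without added Dnmt3a were compared as KO+DNMT3A against KO. The labels do not say whether the KO islets received a virus, so virus and Dnmt3a cannot be told apart here. Matrix genes had lower values in KO+DNMT3A in most classes. All 7 network collagens tested had a lower mean, with a median log2 fold change of -0.86, and for 6 of them, Col4a1, Col4a2, Col8a1, Col10a1, Col15a1 and Col18a1, both KO+DNMT3A libraries lay below both KO libraries. All 4 adhesive and matricellular genes had a lower mean, with a median of -1.08. Fibrillar collagens were lower in 5 of 8 cases, with a median of -0.15, and in 7 of 8 under median scaling or quantile normalization, with medians of -0.35 and -0.39. Mgp had a mean of 40.8 ± 0.226 FPKM over the KO+DNMT3A pair, against 145 ± 30.6 FPKM over the KO pair (SD, n = 2 each). Col8a1 averaged 1.77 ± 0.523 FPKM in KO+DNMT3A and 9.30 ± 3.93 FPKM in the KO pair, and Fn1 4.64 ± 2.23 FPKM and 13.9 ± 4.90 FPKM.

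Of the 41 genes 33 had a lower mean in KO+DNMT3A and 8 a higher one, where 31.8% of all genes tested were lower and 68.2% higher. The libraries of the 2 groups did not overlap for 16 matrix genes lower in KO+DNMT3A, a share of 39.0%, against 5.43% of all genes. Beside the 6 network collagens these were Mgp, Fn1, Sparc, Lum, Bgn, Ogn, Mfap5, Fbn1, Col6a1 and the transmembrane collagen Col13a1. Some rest on few fragments with the longest transcript assumed. Ogn had 1.01 and 0 fragments in KO+DNMT3A and 3.03 and 2.02 in KO. Col13a1 had 1.64 and 0 against 6.55 and 2.18, and Mfap5 4.97 and 0.993 against 11.9 and 2.98. With libraries scaled to equal medians, which moves the median of all genes to -0.01, the count of 16 became 19 of 41, against 10.7% of all genes. In the opposite direction this held for Lox alone, where 17.2% of all genes did so. Again 0 genes passed by limma (0.0% of 13233, smallest adjusted p = 1), while 147 had an unadjusted p under 0.05. The 103 higher ones were 0.778% of all genes and held 0 matrix genes. The 44 lower ones were 0.333% of all genes and included 3 matrix genes. They were Col8a1 with a log2 fold change of -1.85 (SE 0.54, limma unadjusted p = 0.00895, adjusted p = 1), Mgp with -1.79 (SE 0.55, limma unadjusted p = 0.0126, adjusted p = 1) and Fn1 with -1.42 (SE 0.58, limma unadjusted p = 0.0409, adjusted p = 1). The genes with a higher mean and the smallest p were Col6a6 at 0.89 (SE 0.78), Col20a1 at 0.70 (SE 0.68) and Lox at 0.71 (SE 0.82). For the marker genes Col1a1, Col3a1, Dcn and Lum the fold changes were 0.06 (SE 0.85), -0.44 (SE 0.90), 0.80 (SE 1.09) and -1.31 (SE 0.84).

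The median over the 41 genes was -0.45, beside 0.19 over all genes. It was -0.85 without KO+DNMT3A replicate 1, -0.14 without KO+DNMT3A replicate 2, -0.74 without KO replicate 1 and -0.36 without KO replicate 2. The 3 named lower genes kept their sign in each of these fits, at -2.25 to -1.45 for Col8a1, -2.00 to -1.57 for Mgp and -1.83 to -1.0 for Fn1. The network collagen median likewise kept its sign, at -1.21 to -0.60. Without KO replicate 2 it was -0.68, with 1 of 7 genes higher, while the fibrillar median turned to 0.16. The adhesive class median was -0.67, with 1 of 4 genes higher, without KO+DNMT3A replicate 2, and -1.70 without KO+DNMT3A replicate 1. With the insulin-poor KO replicate 2 left out, 21 of 41 matrix genes lay below the remaining KO library in both KO+DNMT3A libraries, against 22.5% of all genes.

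**Figure D4:**
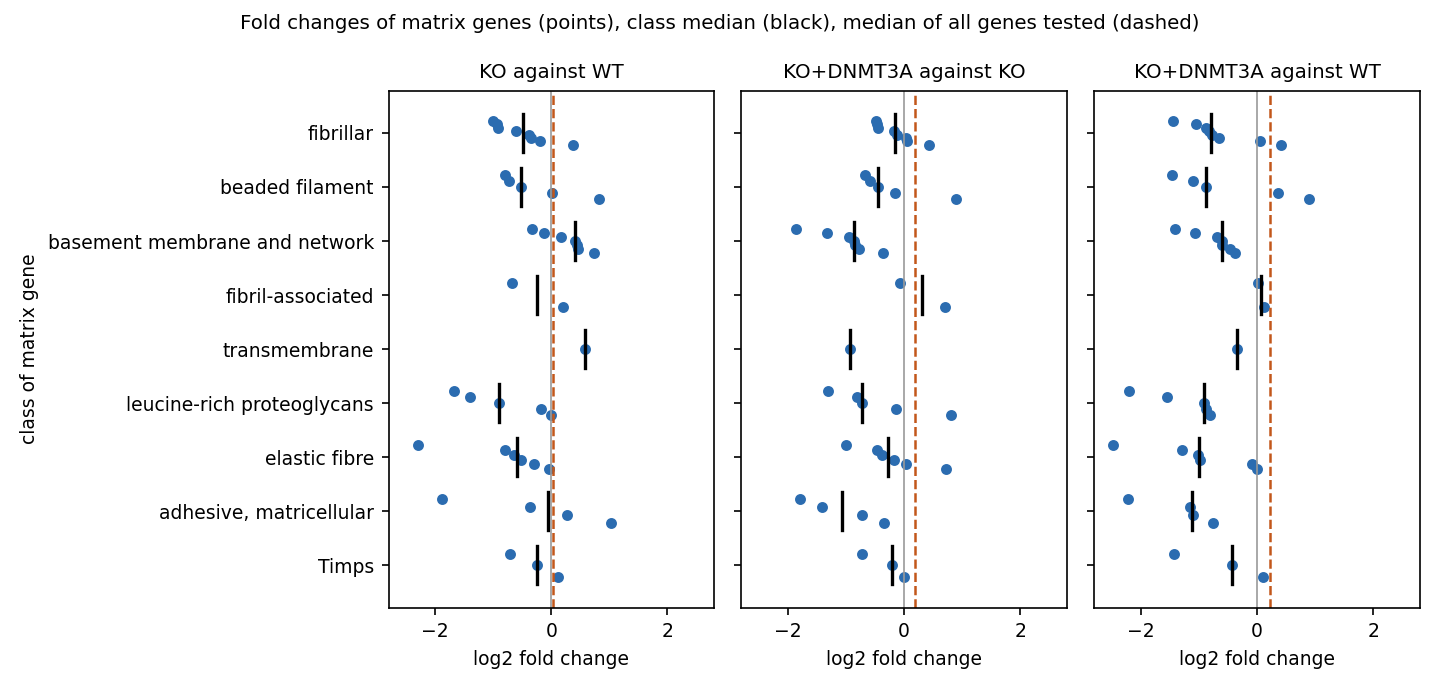
Log2 fold changes of the 41 tested matrix genes (points) by class in the 3 comparisons, with the class median (black bar) and the median of all genes tested (dashed line). Network collagens lie to the right of zero in most cases for KO against WT (class median 0.40) and to its left for KO+DNMT3A against KO (class median -0.86).

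Marker lists of other cell types went in both directions in KO+DNMT3A against KO. The counts below stand beside 31.8% of all genes tested lower and 68.2% higher, with a median of 0.19. The 7 macrophage markers summed to 150 and 93.1 FPKM in KO+DNMT3A, 319 and 268 FPKM in the KO pair, and 427 and 391 FPKM in WT, with none at 0 in any library. All 6 tested macrophage markers were lower in KO+DNMT3A than in KO, with a median of -1.06, and these sums did not overlap. The 8 endothelial markers summed to 31.3 and 21.9 FPKM in KO+DNMT3A, 51.3 and 29.4 FPKM in the KO pair, and 51.1 and 20.4 FPKM in WT, with 5 of 8 lower against KO (median -0.36), overlapping sums and none at 0. The 7 pericyte and smooth muscle markers summed to 58.9 and 26.5 FPKM in KO+DNMT3A, 85.8 and 39.5 FPKM in the KO pair, and 91.2 and 44.1 FPKM in WT, with 2 of 5 lower against KO (median 0.05) and Cnn1 at 0 throughout. Opposite to the matrix genes, all 7 duct markers tested and all 9 beta cell markers had a higher mean in KO+DNMT3A than in KO. Their medians were 1.11 and 1.17. The libraries of the 2 groups overlapped for all of these markers but the beta cell marker Mafa. The beta cell markers summed to 125000 and 152000 FPKM in KO+DNMT3A. In the KO pair they summed to 218000 FPKM and, in the insulin-poor KO replicate 2, to 1640 FPKM. The 5 stroma markers outside the matrix set did not move together between KO+DNMT3A and KO. Pdgfra, at 1.15 and 0.239 FPKM in KO+DNMT3A against 0.0937 and 0.171 FPKM in the KO pair, was higher without overlap. All but the first of these values lie under the worth of 1 fragment on 2 kb. That was 0.447 FPKM in KO+DNMT3A replicate 2 and 0.351 and 0.641 FPKM in the KO pair, so this order rests on very few fragments. Vim, at 17.3 and 15.2 FPKM in KO+DNMT3A against 18.8 and 56.8 FPKM in the KO pair, was lower without overlap. Pdgfrb, Thy1 and Pdpn overlapped. The part of these cells in the matrix values was not tested.

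KO+DNMT3A was also compared with WT, to ask how far treated islets lie from normal ones. It shares its libraries with the other comparisons, so its values are not a separate repeat. Means were lower for 34 of 41 genes, against 35.2% of all genes, and higher for 7, against 64.8%, with a median log2 fold change of -0.83 beside 0.23 over all genes. The libraries did not overlap for 12 of them, a share of 29.3% against 7.87% of all genes, and for none in the other direction, where 19.2% of all genes did so. The 12 were Mfap2, Mfap5, Col8a1, Col4a2, Col15a1, Col18a1, Col6a1, Lum, Fmod, Ogn, Fn1 and Mgp. Beside Mfap2, several of them rest on few fragments with the longest transcript assumed. Ogn had 1.01 and 0 fragments in KO+DNMT3A and 1.01 and 1.01 in WT. Mfap5 had 4.97 and 0.993 against 2.48 and 5.46, and Fmod 5.98 and 2.56 against 6.83 and 5.98. The order of these genes in FPKM thus leans on the shallow depth of WT replicate 1. All 7 network collagens, 5 proteoglycans and 4 adhesive genes had a lower mean, with medians of -0.61, -0.91 and -1.13. With 1 library left out these medians ranged from -1.13 to -0.32, from -2.36 to -0.36 and from -1.67 to -0.75. Their ends nearest zero came without KO+DNMT3A replicate 2 for the network collagens (1 of 7 higher) and adhesive genes, and without WT replicate 1 for the proteoglycans, and the far ends without WT replicate 2. Mfap2 had a mean of 1.33 ± 0.347 FPKM over the KO+DNMT3A pair, against 12.7 ± 6.51 FPKM over the WT pair (SD, n = 2 each), and Col8a1 1.77 ± 0.523 FPKM and 6.32 ± 0.118 FPKM.

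No gene passed here either (0.0% of 13233, smallest limma adjusted p = 0.997), and 379 were under 0.05 before adjustment. The 293 higher in KO+DNMT3A were 2.21% of all genes and held 0 matrix genes, and the 86 lower were 0.65% and held 3. Mfap2 had a log2 fold change of -2.48 (SE 0.56, limma unadjusted p = 0.00236), Col8a1 of -1.41 (SE 0.54, limma unadjusted p = 0.0304) and Lum of -2.21 (SE 0.84, limma unadjusted p = 0.0315), each with an adjusted p of 0.997. Those with a higher mean and the smallest p were Col6a6, Col11a2 and Col28a1, at 0.90 (SE 0.78), 0.41 (SE 0.82) and 0.37 (SE 0.75). The other marker genes gave -0.87 (SE 0.85) for Col1a1, -1.44 (SE 0.90) for Col3a1, -0.88 (SE 1.09) for Dcn and -0.76 (SE 0.55) for Mgp. The median of -0.83 was -0.15 without WT replicate 1, -1.43 without WT replicate 2 and -0.50 without KO+DNMT3A replicate 2. Leaving out WT replicate 1 gave 0.28 for Col1a1 and 0.60 for Dcn.

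The wider matrix pathway was read from lists written from textbook roles. None of their genes passed in any comparison. Of all genes tested, 47.3% were lower in KO against WT, 31.8% in KO+DNMT3A against KO and 35.2% in KO+DNMT3A against WT. Their medians were 0.03, 0.19 and 0.23 in that order. Genes for collagen folding, modification and processing were lower in 14 of 22 cases in KO against WT (median -0.17), lower in 8 of 22 in KO+DNMT3A against KO (median 0.10), and lower in 12 of 22 in KO+DNMT3A against WT (median -0.03). The collagen chaperone gene Serpinh1 was 106 and 43.1 FPKM in KO+DNMT3A, 37.0 and 71.6 FPKM in the KO pair, and 230 and 91.2 FPKM in WT. It was highest in WT replicate 1, as were 6 of 8 fibrillar collagens. Laminins and other basement membrane proteins, which share the islet capillary sheet with type IV collagen, were lower in 6 of 10 cases in KO+DNMT3A against KO, with a median of -0.08. The linker gene Nid1 was 4.91 and 3.40 FPKM in KO+DNMT3A, 5.10 and 6.14 FPKM in the KO pair, and 2.03 and 5.43 FPKM in WT. It was lower in KO+DNMT3A than in KO without overlap, and the laminin chain gene Lamb3 was higher without overlap. Lamb3 was 3.16 and 0.444 FPKM in KO+DNMT3A, 0.174 and 0.318 FPKM in the KO pair, and 1.52 and 0 FPKM in WT.

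Genes of the matrix metalloproteinase list were lower in 6 of 12 cases in each comparison, with medians of -0.04, -0.05 and -0.20. In the same order 47.3%, 31.8% and 35.2% of all genes were lower, with medians of 0.03, 0.19 and 0.23. The inhibitor gene Timp4 was counted in the metalloproteinase list, and Mmp7 was counted with the duct markers instead. Mmp10, a stromelysin, was 8.48 and 2.08 FPKM in KO+DNMT3A, 0.408 and 0 FPKM in the KO pair, and 0 and 0 FPKM in WT. Collagen and matrix receptors were lower in 8 of 9 cases in KO+DNMT3A against WT (median -0.33) and in 5 of 9 against KO (median -0.09). Itgb5, an integrin subunit, was 6.44 and 6.41 FPKM in KO+DNMT3A, 10.8 and 10.3 FPKM in the KO pair, and 17.7 and 8.25 FPKM in WT. TGF-beta ligands, receptors and latency proteins, a main route to collagen synthesis, were lower in 10 of 16 cases in KO against WT (median -0.14), in 11 of 16 in KO+DNMT3A against KO (median -0.06) and in 9 of 16 in KO+DNMT3A against WT (median -0.27).

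Because Dnmt3a methylates cytosines in CpG pairs, the upstream sequence of matrix genes is shown for its CpG content; methylation itself was not measured in these libraries. RefSeq (GRCm38.p6) gave a promoter for 45 of the 62 genes, and the 250 bases before the most upstream start were read. The letters CG, the same on both strands, occurred a median of 8 times in the 31 tested matrix genes with a promoter, against 6 times over 27025 promoters, with quartiles of 4 and 16 against 2 and 16. Col8a1 and the multiplexin Col15a1 are shown as genes of the network collagen class with the lowest values in KO+DNMT3A. Col3a1 and Col5a1 are shown as fibrillar collagens that were both highest in WT replicate 1 and lie at opposite ends in CpG content. Capitals mark each CG, and each sequence runs 5′ to 3′ on the gene's strand.
Col8a1: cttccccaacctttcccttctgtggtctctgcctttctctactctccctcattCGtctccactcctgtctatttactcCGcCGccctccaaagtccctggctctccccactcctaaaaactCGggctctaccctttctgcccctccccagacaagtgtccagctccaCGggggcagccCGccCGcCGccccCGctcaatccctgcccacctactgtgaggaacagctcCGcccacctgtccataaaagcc
Col15a1: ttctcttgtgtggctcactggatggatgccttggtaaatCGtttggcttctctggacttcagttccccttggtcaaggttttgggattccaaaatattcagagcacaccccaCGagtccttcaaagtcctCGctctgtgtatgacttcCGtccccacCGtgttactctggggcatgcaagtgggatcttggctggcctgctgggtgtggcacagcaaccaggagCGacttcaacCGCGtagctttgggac
Col3a1: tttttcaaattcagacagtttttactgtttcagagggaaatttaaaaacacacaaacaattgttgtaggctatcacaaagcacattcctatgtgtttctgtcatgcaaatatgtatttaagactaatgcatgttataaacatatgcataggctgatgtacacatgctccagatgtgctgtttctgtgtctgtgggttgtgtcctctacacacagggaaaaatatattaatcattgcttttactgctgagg
Col5a1: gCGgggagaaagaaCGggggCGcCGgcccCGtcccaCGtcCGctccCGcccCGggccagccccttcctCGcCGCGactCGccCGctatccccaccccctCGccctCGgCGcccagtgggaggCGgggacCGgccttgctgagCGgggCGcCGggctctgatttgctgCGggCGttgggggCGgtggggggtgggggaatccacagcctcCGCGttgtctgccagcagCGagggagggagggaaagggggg
The windows are chr16:57754738-57754987 on the minus strand for Col8a1, and chr4:47207762-47208011, chr1:45311288-45311537 and chr2:27886175-27886424 on the plus strand for Col15a1, Col3a1 and Col5a1. They hold 10, 8, 0 and 28 CpG. A promoter with no CpG was found for 2 of the 31 tested matrix genes, Col3a1 and Col28a1, which is 6.45%, against 8.27% of all promoters. The letters TATAAA, searched on both strands, were in 16.1% of the 31 and in 13% of all promoters, and lie in the Col3a1 window shown. The letters CCAAT, likewise on both strands, were in 32.3% and 34.5%, and GGGCGG, which itself holds a CG, in 54.8% and 33.0%.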

How the data were processed

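Poly-A RNA of isolated islets was sequenced in 6 libraries, 2 in each of 3 groups taken from the sample titles. The authors deposited 1 table of FPKM, as its headers name the unit. The tools HISAT2 2.0.4, StringTie 1.3.0, edgeR and mm10 are named, per the submitters' processing notes, without roles. All columns were used. Counts were not at hand, so depth was inferred from single-transcript genes, where 84.3% to 91.5% of values worth at most 20 fragments came out whole (tolerance 0.01). Precision follows from that depth, and fragment numbers cover counting error only.

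Symbols come from the reference table (478 genes had none) and positions from GENCODE M21 on GRCm38/mm10. The fit took the 13233 genes that reached 1 FPKM in 2 or more libraries. FPKM plus 1 was log2-transformed, and 1 limma 3.58.1 fit (R 4.3.3; trended, robust) over all libraries gave 3 comparisons, two-sided, Benjamini-Hochberg adjusted over all genes at 0.05. Fold changes are on that scale and understate those of low genes. With 2 libraries a group an exact permutation test cannot go below 0.333. On simulated data the fit called known changes when the spread between libraries was made small, and none at the spread of these libraries, so a gene that misses the threshold is not shown to be unchanged. Python 3.11.15 with pandas 2.3.3 made tables and figures.

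The genes and lists were chosen with earlier results of these data known. Fold changes are given for Col1a1, Col3a1, Dcn, Lum, Mgp and the 3 higher and 3 lower matrix genes of smallest p per comparison; of other lists, up to 2 genes whose groups did not overlap. Other cell type markers were named after their values were seen. Alternatives were another pseudocount, filters, scalings, fits, a replicate block and libraries left out. Varying class medians and counts of genes whose groups do not overlap was chosen after seeing the data.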

Additional observations from a re-analysis of the deposited data

How the results depend on the processing

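The count of 0 genes passing the limma test held in all 3 comparisons under every alternative run, the replicate block (0) and a crossed block for KO against WT, added after seeing the data (0), included. By the replicate numbers of the titles, same-numbered libraries deviated together with a correlation over 13233 genes of -0.269 for KO and WT, 0.318 for KO+DNMT3A and KO, and 0.101 for KO+DNMT3A and WT, and by the number 3 that each group shares in the column names 0.269, 0.318 and -0.101. Neither numbering gave a correlation over 0.1 in every pair of groups, so neither was taken to pair the samples. The crossed block follows the column names. The median over tested matrix genes kept within the replicate spread of 0.47 under the other pseudocount, filters, scalings and fits. Median scaling moved the median of all genes to -0.01 in KO+DNMT3A against KO and to 0.03 in KO+DNMT3A against WT. Leaving out 1 library gave medians of -1.0 to 0.33 for KO against WT, -0.85 to -0.14 for KO+DNMT3A against KO and -1.43 to -0.15 for KO+DNMT3A against WT. Without both insulin-poor libraries, so that WT and KO have 1 library each, assumed to vary like KO+DNMT3A, the medians were 0.17 for KO against WT and -0.15 for KO+DNMT3A against WT.

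In KO against WT, matrix genes lower without overlap numbered 2 under quantile normalization, where 11.2% of all genes did so, and 15 (36.6%) without both insulin-poor libraries, where 51.3% did. With 1 library of the compared groups left out they numbered 6 to 26 in KO against WT, from 14.6% against 34.6% of all genes without WT replicate 1 to 63.4% against 26.3% without WT replicate 2. They numbered 18 to 29 in KO+DNMT3A against KO, from 43.9% against 18.2% to 70.7% against 19.8%, and 14 to 35 in KO+DNMT3A against WT, from 34.1% against 25% to 85.4% against 23.2%. Fewer libraries overlap less by construction.

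Of 30 named fold changes 17 never changed sign. Without both insulin-poor libraries the sign turned in KO against WT for Col3a1 (0.50), Lum (0.45), Col28a1 (-0.62) and Fmod (0.07), and in KO+DNMT3A against WT for Col1a1 (0.28), Dcn (0.60), Col6a6 (-0.01), Col11a2 (-0.57) and Col28a1 (-0.43). Quantile normalization turned Col1a1 in KO+DNMT3A against KO (-0.10), and Col11a2 (-0.10) and Col28a1 (-0.20) in KO+DNMT3A against WT. Median scaling turned Col1a1 in KO+DNMT3A against KO (-0.14). With 1 library left out, signs turned in KO against WT for Col1a1 (-2.08 to 0.22), Col3a1 (-2.36 to 0.36) and Lum (-2.01 to 0.20). They turned in KO+DNMT3A against KO for Col1a1 (-0.43 to 0.55), Dcn (-0.34 to 1.94) and Col20a1 (-0.14 to 1.53). In KO+DNMT3A against WT they turned for Col1a1 (-2.02 to 0.28), Dcn (-2.36 to 0.60), Col6a6 (-0.01 to 1.80), Col11a2 (-0.57 to 1.39) and Col28a1 (-0.43 to 1.17). The cause was not tested. In WT replicate 1, where 1 fragment on 2 kb is worth 2.04 FPKM, differences in genes of a few FPKM were not detectable.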
